A study of Rattus norvegicus with 40 samples.

Results

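The genes described here are 7 genes of fatty acid uptake and oxidation in rat skeletal muscle, Ppargc1a (ENSRNOG00000004473), Cpt1b (ENSRNOG00000010438), Pdk4 (ENSRNOG00000009565), Ucp3 (ENSRNOG00000017716), Cd36 (ENSRNOG00000005906), Lpl (ENSRNOG00000012181) and Fabp3 (ENSRNOG00000012879). They were chosen by name and Ensembl identifier and make up 7 of the 32545 genes of the count table. RNA was sequenced from the gastrocnemius, which lies in the calf, and the triceps of the foreleg in male rats of the Wistar strain, which is outbred. There were 10 rats of 20 months and 10 other rats of 22 months, and each gave 1 library per muscle, so there were 4 groups of 10 libraries. No group carried a transgene or received a treatment per the labels. The comparison of ages addressed what changes as muscle enters the ages at which its mass and function are lost.

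Muscle takes up fatty acids from the blood and burns them in its mitochondria. Lipoprotein lipase (Lpl) frees fatty acids from circulating triglycerides at the capillary wall, Cd36 helps them across the membrane, and Fabp3 carries them inside the fibre. Cpt1b, the muscle form of carnitine palmitoyltransferase, lets them into the mitochondrion, Pdk4 holds back the pyruvate dehydrogenase complex and so spares glucose when fat is burned, Ucp3 is a carrier of the inner mitochondrial membrane whose RNA follows fatty acid supply, and Ppargc1a is a coactivator of transcription that drives mitochondrial and oxidative genes. Fasting and exercise are known to raise Pdk4 and Ucp3.

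Total counts ran from 10983887 to 68580194 per library, with a median of 20943177. Levels are given as CPM, a gene's reads per library total, with TMM scaling between libraries. They were compared between samples of a gene and not between genes, since gene lengths were not used. In tissue samples, fewer cells of a type and less RNA per cell cannot be told apart. The labelled muscles could not be checked against marker genes, because the table pairs no identifier with a gene name. Triceps replicates 7 and 10 of 20 months stood apart from the others of their group. On the first principal component, which held 35.1% of the variance, they lay at 10.9 and -4.45. The other triceps libraries of 20 months lay between -45.3 and -21.3, and the lowest gastrocnemius library lay at -2.24. Triceps libraries of 22 months lay between -40.0 and -10.1. The highest of these, replicate 10, was kept, though it had the most Ppargc1a, Lpl and Fabp3 of its group. Several results moved when animals 7 and 10 of 20 months were left out and are also given without them, a choice made after the data were seen. This component came from the same libraries and largely separated the muscles. Leaving out triceps libraries that lie near gastrocnemius on it can by itself widen the muscle differences. Calls between muscles gained without these animals are therefore not separate support.

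Of the 7 genes, 6 passed the filter on low counts. The exception was the identifier given for Cd36. It had 47 counts over all 40 libraries, at most 4 in any library and 0 in 15 of them, and never exceeded 0.1653 CPM. No level or fold change can be given for it. Cd36 is an abundant transporter in oxidative muscle, and whether its reads were assigned to another row of the table was not tested. The other 6 genes had at least 168 counts in each library.

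The members differed in how far they spread between animals. Over the 40 libraries the highest value of Ucp3 was 26.8 times the lowest, against 19.4 times for Pdk4, 10.2 times for Fabp3, 6.08 times for Lpl, 5.33 times for Ppargc1a and 2.09 times for Cpt1b. The coefficient of variation (CV, SD over mean) of Pdk4 within groups was 53.3% to 76.1%, where the median gene had 17% to 18.6%. Counting error was small beside this, at 4.57% for the Pdk4 library with the fewest counts. Cpt1b lay at the other end, with a CV of 10.5% to 22.0%.

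**Figure D1:**
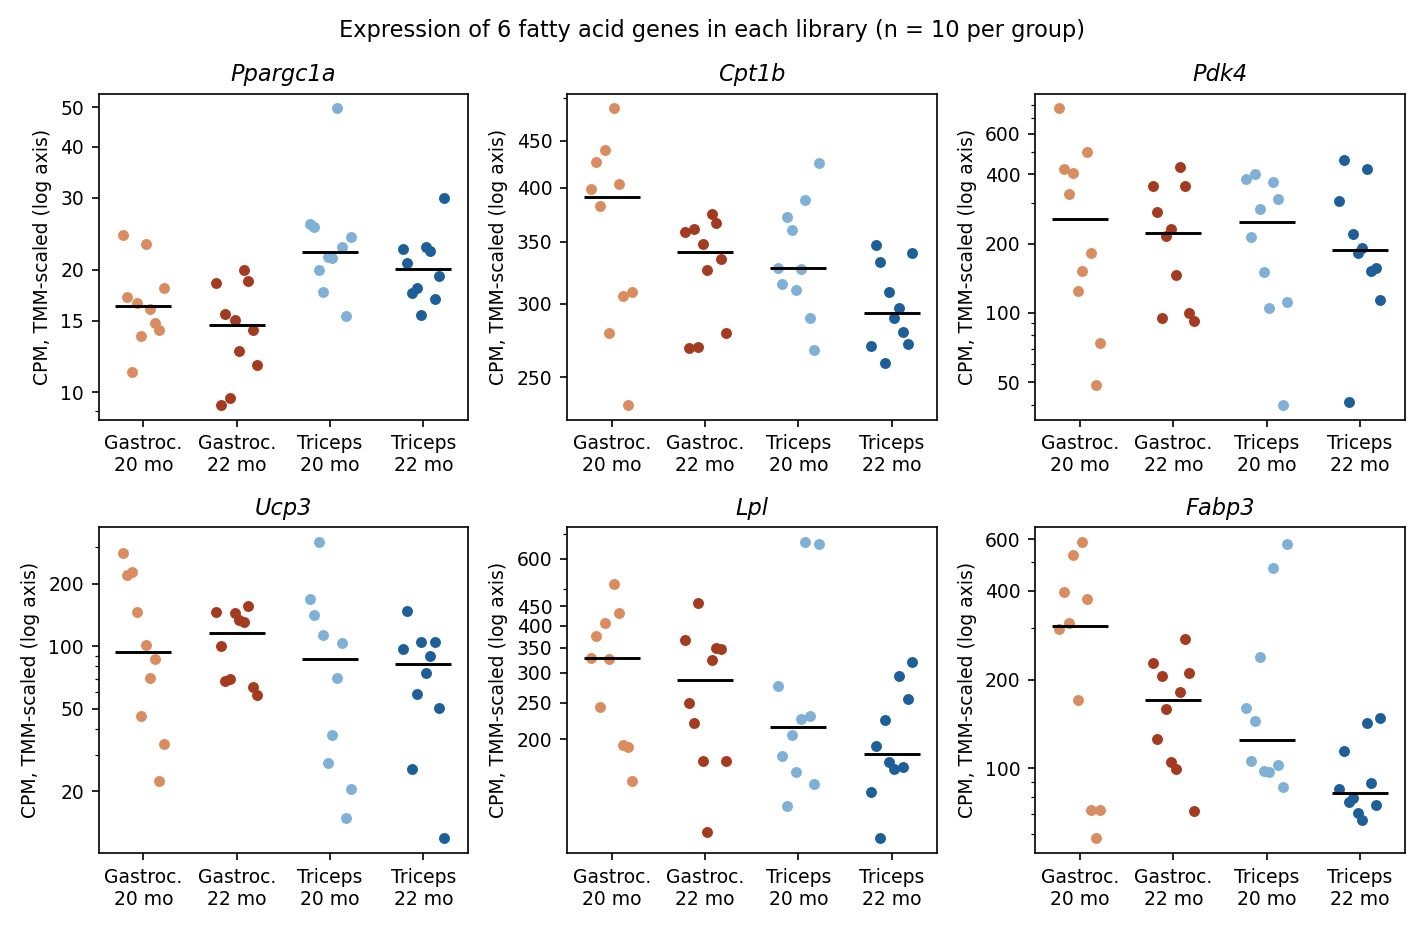
Each point is 1 library and shows its CPM (TMM-scaled, log axis) for a gene, in 4 groups of 10 libraries, and the bar is the group median. Ages overlapped for each gene, Ppargc1a was mostly higher in triceps, and Pdk4, Ucp3 and Fabp3 each spread over more than a 10-fold range.

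Pdk4 and Ucp3 are taken first, since their levels varied together from animal to animal. To show the sequence in front of each gene, the 250 bases upstream of the start in RefSeq (build GRCr8) are printed 5′ to 3′ on the gene's strand, Pdk4 at chr4:34568330-34568579 on the minus strand and Ucp3 at chr1:164227660-164227909 on the plus strand. Capitals mark E-boxes, the letters CANNTG.
Pdk4: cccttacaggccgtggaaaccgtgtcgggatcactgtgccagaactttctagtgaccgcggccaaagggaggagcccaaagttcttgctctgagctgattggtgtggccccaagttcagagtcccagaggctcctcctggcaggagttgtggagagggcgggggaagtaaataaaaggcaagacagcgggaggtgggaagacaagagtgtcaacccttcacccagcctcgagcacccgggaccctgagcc
Ucp3: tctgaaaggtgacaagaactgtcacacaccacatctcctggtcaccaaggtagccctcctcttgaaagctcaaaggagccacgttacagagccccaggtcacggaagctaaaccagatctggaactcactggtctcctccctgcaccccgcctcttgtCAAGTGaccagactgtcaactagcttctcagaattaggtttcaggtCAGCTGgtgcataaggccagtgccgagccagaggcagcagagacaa
Ucp3 held 2 E-boxes in this window and Pdk4 held 0, while 65.5% of 33469 rat promoters of the same length held at least 1. Neither held a PPAR response element, searched on both strands as a strict direct repeat of the half-site AGGTCA with 1 base between (in 0.0508% of promoters) and in a relaxed form (in 0.368%), an estrogen-related receptor element TNAAGGTCA (in 1.04%) or a MEF2 site (in 3.41%). That says only that these exact letters were not in the window, not that a PPAR response element was absent. Forms with other letters in a half-site were not searched for. In Ucp3 a half-site overlaps the E-box nearer the start. Just before it, with 1 base between, lie letters that resemble a half-site. Whether this stretch is a PPAR response element was not tested. RefSeq promoters were at hand for 5 of the 7 members.

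Pdk4 in gastrocnemius had a lowest, median and highest level of 48.7, 256 and 775 CPM at 20 months and of 91.8, 224 and 431 CPM at 22 months. In triceps it had 39.9, 248 and 401 CPM at 20 months and 40.9, 187 and 462 CPM at 22 months. The groups overlapped over most of their range. At 20 months replicate 9 was the lowest in both muscles.

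Ucp3 in gastrocnemius had a lowest, median and highest level of 22.6, 94.4 and 283 CPM at 20 months and of 58.1, 116 and 156 CPM at 22 months. In triceps it had 14.96, 87.1 and 319 CPM at 20 months and 11.9, 82.1 and 148 CPM at 22 months. As for Pdk4, replicate 9 was the lowest of both muscles at 20 months. The CV of Ucp3 in gastrocnemius was 73.7% at 20 months and 36.5% at 22 months, and this difference was not tested.

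The level of an animal's gastrocnemius went with that of its triceps for these genes. With the mean of each age taken out, Pearson's r between both muscles over 20 animals was 0.865 for Ucp3 (Spearman's rho 0.895) and 0.807 for Pdk4 (rho 0.78). For Ucp3 the two-sided permutation p was 1e-05, the smallest that 100000 permutations within age can give, and the Benjamini-Hochberg adjusted p over all 12980 genes was 0.00351 (rho, p = 3e-05, adjusted p = 0.0111). For Pdk4 the permutation p was 4e-05 and the adjusted p 0.00764 (rho, p = 0.00015, adjusted p = 0.0309). The relation was there at each age: r was 0.923 at 20 months and 0.776 at 22 months for Ucp3, and 0.87 and 0.734 for Pdk4. Without the 2 animals farthest from the median, r was 0.836 for Ucp3 and 0.726 for Pdk4. The median gene had an r of 0.181, 0.562% of genes had an adjusted p under 0.01 for r, and 36 genes had a higher r than Ucp3 and 71 a higher r than Pdk4.

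None of the other 4 genes passed. Between both muscles r was 0.219 for Cpt1b, 0.0429 for Ppargc1a, 0.0206 for Lpl and -0.0121 for Fabp3, with rho from 0.0917 to 0.238 and adjusted permutation p between 0.774 and 0.992. For these 4 genes the unadjusted permutation p was 0.33 to 0.97, and r without the 2 farthest animals was 0.276 for Lpl and -0.329 for Fabp3. Whether r differed between genes was not tested. The feeding state and activity of the animals are not given in the labels, and their part in the animal-to-animal differences was not tested. Within groups, the r of a member's level with the total count of the library was between -0.0254 and 0.13 over 40 libraries.

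**Figure D2:**
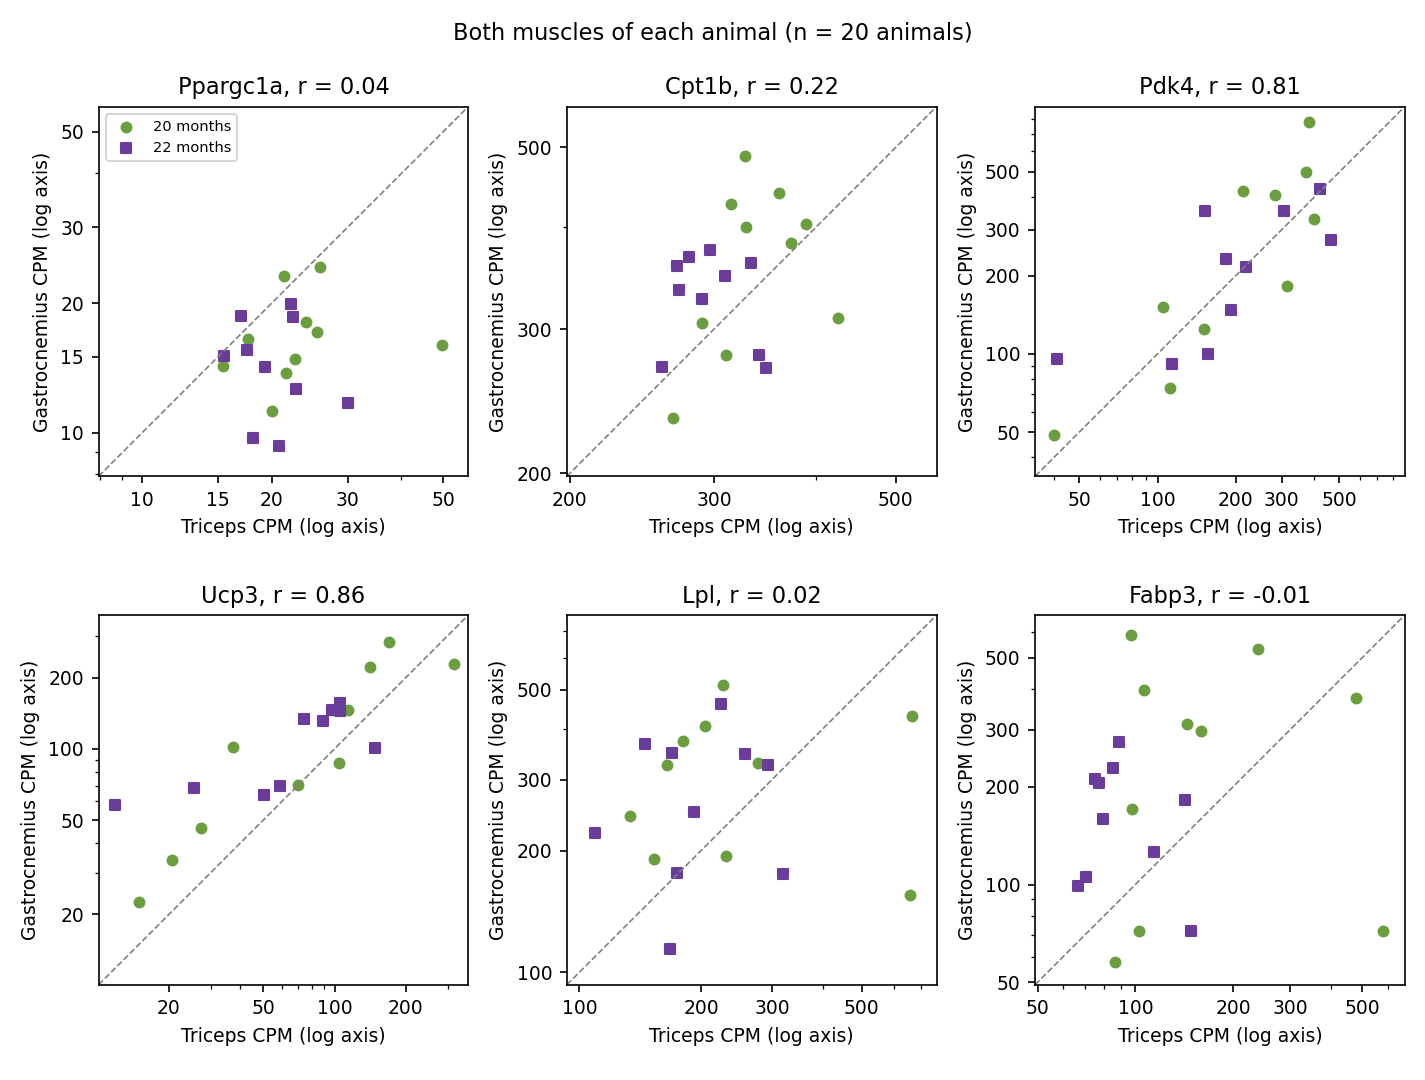
Each point is 1 animal, with its triceps CPM on the x axis and its gastrocnemius CPM on the y axis (both log axes), 10 animals of 20 months (circles) and 10 of 22 months (squares), and the dashed line marks equal levels. For Pdk4 and Ucp3 both muscles vary together, with r of 0.81 and 0.86 (ages centred) and most points of Ucp3 above the line, and the other 4 genes scatter with r of -0.01 to 0.22.

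Within a muscle, Pdk4 and Ucp3 were also close to each other. Across the 20 animals, with ages centred, their r was 0.84 in gastrocnemius (rho 0.794) and 0.797 in triceps (rho 0.759). Among 12979 other genes, Pdk4 was the one most correlated with Ucp3 in both muscles, and Ucp3 was number 2 for Pdk4 in both. These correlations come from the same libraries and are given as a description.

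Lpl and Fabp3 were also correlated, at lower ranks among all genes. Their r was 0.793 in gastrocnemius (rho 0.798) and 0.815 in triceps (rho 0.586), and without the 2 farthest animals it was 0.791 and 0.555. For these pairs the 2 animals were picked on the levels of the first gene only. That gene was Lpl here, Cpt1b for Cpt1b with Fabp3, and Ppargc1a for Ppargc1a with Lpl. Fabp3 was number 174 for Lpl in gastrocnemius and 112 in triceps, and Lpl was number 205 and 75 for Fabp3. Cpt1b followed Fabp3, with r of 0.839 in gastrocnemius and 0.758 in triceps, and of 0.82 and 0.629 without the 2 farthest animals. That r was 0.913 at 20 months and 0.579 at 22 months in gastrocnemius, and 0.879 and 0.46 in triceps. Cpt1b and Ucp3 had an r of 0.707 in gastrocnemius and of -0.00237 in triceps, and that difference was not tested. Ppargc1a and Lpl had an r of 0.274 in gastrocnemius and of 0.668 in triceps, where it was 0.392 without the 2 farthest animals. Over all 40 libraries, with the mean of each group taken out, the genes most like any member were 2 that resembled Fabp3, ENSRNOG00000002934 (r 0.912) and ENSRNOG00000008103 (r 0.911), out of 9751 genes of at least 5 CPM.

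**Figure D3:**
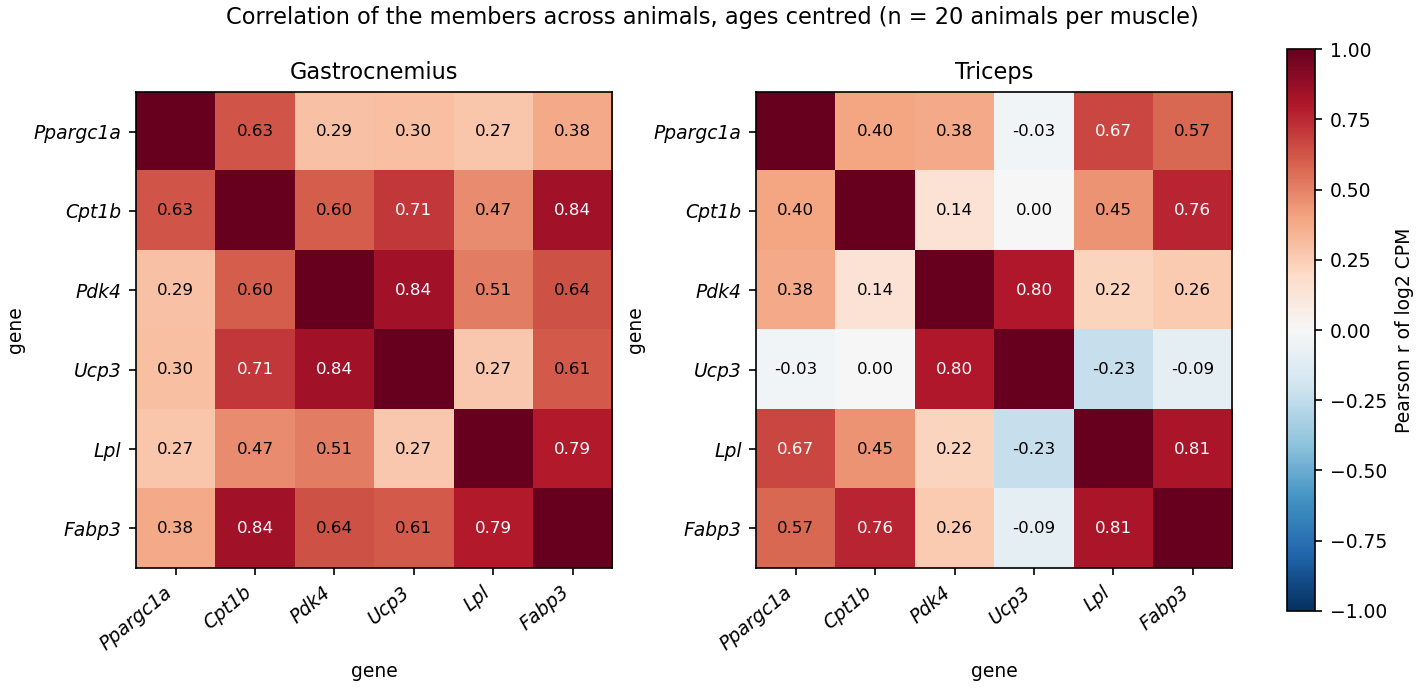
Each cell gives Pearson's r of log2 CPM between 2 genes across 20 animals, ages centred, in gastrocnemius (left) and triceps (right), from -1 (blue) to 1 (red). Pdk4 with Ucp3, Lpl with Fabp3 and Cpt1b with Fabp3 are at 0.76 or above in both muscles.

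Between 20 and 22 months no member passed the test in either muscle. The background was also 0%, since edgeR's quasi-likelihood F-test called 0 of 12659 genes in gastrocnemius and 0% of 12345 in triceps at an adjusted p under 0.01. At an unadjusted p under 0.05 it had 1308 and 1084 genes, limma-voom called 0 in both (1408 and 1076 unadjusted) and DESeq2 called 1 and 0 (1460 and 1149 unadjusted). All 6 estimates were below 0 in each muscle, and 3 of the 12 changed sign under another setting (Ucp3 in gastrocnemius, Pdk4 and Lpl in triceps). The median log2 fold change of all genes tested was 0.00966 in gastrocnemius and 0.00873 in triceps, and the share of genes below 0 was not computed. The 12 estimates were not independent, since several members were correlated with each other across the same animals.

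Fabp3, the carrier of fatty acids in the fibre, had the lowest estimates. In gastrocnemius its lowest, median and highest levels were 57.8, 304 and 588 CPM at 20 months and 71.7, 170 and 275 CPM at 22 months. In triceps they were 86.7, 125 and 578 CPM at 20 months and 66.7, 82.3 and 148 CPM at 22 months. All 10 gastrocnemius libraries of 22 months lay below the median of 20 months, and 6 of 20 months lay above all of 22 months. Replicates 8, 9 and 10 of 20 months were low, however, at 72.0, 57.8 and 72.0 CPM. How many of all genes reach such counts was not computed. The log2 fold change with age was -0.78 ± 0.38 (SE, n = 10 per group) in gastrocnemius, with an edgeR adjusted p of 0.486 (unadjusted 0.052). In triceps it was -1.14 ± 0.33, with an edgeR adjusted p of 0.513 (unadjusted 0.00224). Without triceps replicates 7 and 10 of 20 months, which had 479 and 578 CPM, it was -0.44 ± 0.19 (edgeR adjusted p = 0.491).

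Lpl had lowest, median and highest levels of 156, 327 and 515 CPM at 20 months and of 114, 288 and 460 CPM at 22 months in gastrocnemius. In triceps these were 134, 216 and 666 CPM at 20 months and 110, 184 and 320 CPM at 22 months. The ages overlapped in both muscles, and triceps replicates 7 and 10 of 20 months, at 666 and 657 CPM, lay above all other triceps libraries. Its log2 fold change with age was -0.18 ± 0.25 in gastrocnemius and -0.50 ± 0.29 in triceps, with edgeR adjusted p of 0.804 and 0.634. Without these replicates the triceps value was 0.07 ± 0.18 (edgeR adjusted p = 0.906).

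Cpt1b, at the carnitine shuttle, ran from 233 to 488 CPM (median 391) at 20 months and from 269 to 375 CPM (median 342) at 22 months in gastrocnemius. In triceps it ran from 268 to 425 CPM (median 328) and from 259 to 347 CPM (median 293). In gastrocnemius all 10 libraries of 22 months lay below the median of 20 months, 6 of 20 months lay above all of 22 months and 1 lay below them all. In triceps 7 of 22 months lay below the median of 20 months, and 4 of 20 months lay above all of 22 months. As for Fabp3, how many of all genes reach such counts was not computed. The log2 fold change was -0.15 ± 0.11 in gastrocnemius and -0.17 ± 0.08 in triceps, with edgeR adjusted p of 0.633 and 0.577. Without triceps replicates 7 and 10 of 20 months the triceps value was -0.09 ± 0.08 (edgeR adjusted p = 0.677).

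Ppargc1a, Pdk4 and Ucp3 gave log2 fold changes with age of -0.21 ± 0.15, -0.39 ± 0.42 and -0.20 ± 0.37 in gastrocnemius, where edgeR adjusted p were 0.591, 0.746 and 0.853. In triceps they gave -0.25 ± 0.17, -0.08 ± 0.38 and -0.41 ± 0.47, where edgeR adjusted p were 0.695, 0.971 and 0.838. The triceps value of Ppargc1a rested on replicate 7 of 20 months: it was -0.06 without that library and -0.04 ± 0.12 without replicates 7 and 10 (edgeR adjusted p = 0.866 and 0.936). With SE of 0.37 to 0.47 for Pdk4 and Ucp3, a change well above the SE could also have gone undetected. The age effects of both muscles were then compared over all 40 libraries, and no member passed, against a background of 0% of 12980 genes (389 at an unadjusted p under 0.05 by edgeR, 0 called by DESeq2 and limma-voom, with 429 and 403 unadjusted). The differences (gastrocnemius minus triceps) were between -0.32 ± 0.59 for Pdk4 and 0.35 ± 0.52 for Fabp3, all with an edgeR adjusted p of 0.999. This fit took the 40 libraries as independent and did not use the pairing of both muscles of an animal, so these SE are not those of a paired difference. With the animal as a block edgeR also called 0 of 12980 genes (585 unadjusted, smallest adjusted p 0.932).

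More genes were called between muscles than between ages. Ppargc1a was lower in gastrocnemius than in triceps. At 20 months it had a lowest, median and highest level of 11.2, 16.3 and 24.3 CPM in gastrocnemius and of 15.4, 22.1 and 49.7 CPM in triceps. At 22 months it had 9.33, 14.7 and 19.9 CPM in gastrocnemius and 15.5, 20.0 and 30.0 CPM in triceps. The means were 16.9 ± 4.07 and 24.4 ± 9.49 CPM (SD, n = 10) at 20 months, and 14.5 ± 3.74 and 20.6 ± 4.17 CPM at 22 months. The ranges overlapped, but within animals gastrocnemius was the lower muscle in 9 of 10 rats at each age. The log2 fold change (gastrocnemius over triceps) was -0.51 ± 0.11 over both ages (edgeR adjusted p = 0.000398), and -0.50 with the animal as a block (edgeR adjusted p = 0.000435). Without replicates 7 and 10 of 20 months it was -0.42 ± 0.10 (edgeR adjusted p = 0.00133).

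Over both ages Ppargc1a was 1 of the 6 members called, and 29.3% of 12980 genes were called. With the animal as a block 2 members were called, Ppargc1a and Ucp3, where 32.5% of genes were. Neither count puts the members above the background. Taken singly, at 22 months Ppargc1a was called at -0.49 ± 0.14 (edgeR adjusted p = 0.00829), as was Fabp3, so 2 of the 6 members were called against 20.3% of 12565 genes. The block left Ppargc1a at -0.51 ± 0.14 (edgeR adjusted p = 0.0108), and then 0 members and 21.1% of genes were called. At 20 months it was -0.52 ± 0.18 and not called (edgeR adjusted p = 0.0655, or 0.0447 with the block), where 3.76% of 12426 genes were called, or 4.07% with the block, and 0 members were. Without replicate 7 the value at 20 months was -0.31 (edgeR adjusted p = 0.139), and without replicates 7 and 10 it was -0.30 ± 0.15 (edgeR adjusted p = 0.201). The call at 22 months was lost without replicate 1, 2, 3, 4, 6, 9 or 10 in turn, with an edgeR adjusted p of at most 0.0336. The muscle effects of both ages did not differ beyond their error (0.03 ± 0.23, edgeR adjusted p = 0.999).

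Ucp3 was higher in gastrocnemius in 17 of 20 animals. The log2 fold change over both ages was 0.39 ± 0.31 without a block (edgeR adjusted p = 0.332) and 0.55 ± 0.13 with the animal as a block (edgeR adjusted p = 0.00183). The gene was called with the block and not without it. At 22 months the blocked value was 0.67 ± 0.19 (edgeR adjusted p = 0.0157) and at 20 months 0.46 ± 0.16 (edgeR adjusted p = 0.0719), so neither age alone passed.

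Gastrocnemius had more Fabp3 than triceps in 9 of 10 rats of 22 months and in 6 of 10 of 20 months. At 22 months gastrocnemius had a log2 fold change of 0.82 ± 0.21 (edgeR adjusted p = 0.00535), and with the animal as a block of 0.78 ± 0.22 (edgeR adjusted p = 0.013). The call was also lost without replicate 1, 3, 4, 8 or 9 in turn, with an edgeR adjusted p of at most 0.0205. At 20 months it was 0.47 ± 0.46 (edgeR adjusted p = 0.568). Triceps replicates 7 and 10 of 20 months had the highest triceps levels and stood apart from the rest, and without these animals the value was 1.26 ± 0.40 (edgeR adjusted p = 0.0471), where 4.42% of genes were called. With 1 animal left out it ran from 0.21 (without replicate 6) to 0.89 (without replicate 10). Over both ages it was 0.63 ± 0.26 (edgeR adjusted p = 0.0463) and without these animals 0.997 ± 0.22 (edgeR adjusted p = 0.000437), where 3 members and 30.5% of genes were called. Leaving out replicate 10 of 20 months alone gave 0.85 (edgeR adjusted p = 0.00387).

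Lpl turned on the same 2 animals. Gastrocnemius had the higher level in 15 of 20 rats, and the log2 fold change over both ages was 0.29 ± 0.19 (edgeR adjusted p = 0.242). Without them it was 0.56 ± 0.16 (edgeR adjusted p = 0.00395), and with the block as well 0.53 ± 0.14 (edgeR adjusted p = 0.00377), where 4 members and 32.8% of genes were called. At 20 months it was 0.14 ± 0.31 with them and 0.74 ± 0.20 without (edgeR adjusted p = 0.822 and 0.0216), and with the block and without them 0 members and 3.93% of genes were called at that age. With 1 animal left out it ran from 0.01 (without replicate 6) to 0.43 (without replicate 10). At 22 months it was 0.45 ± 0.22 (edgeR adjusted p = 0.12).

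With TMM scaling Cpt1b and Pdk4 did not pass in any muscle comparison. Cpt1b was higher in gastrocnemius in 15 of 20 animals, with a log2 fold change over both ages of 0.12 ± 0.07 (edgeR adjusted p = 0.163), though scaling by library totals alone gave 0.27 (edgeR adjusted p = 0.00271). Pdk4 was higher in 11 of 20, with 0.19 ± 0.29 (edgeR adjusted p = 0.633) from the fit that did not use the pairing. Within animals its mean log2 difference (gastrocnemius minus triceps) was 0.138 (SD 0.648, n = 20 animals).

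**Figure D4:**
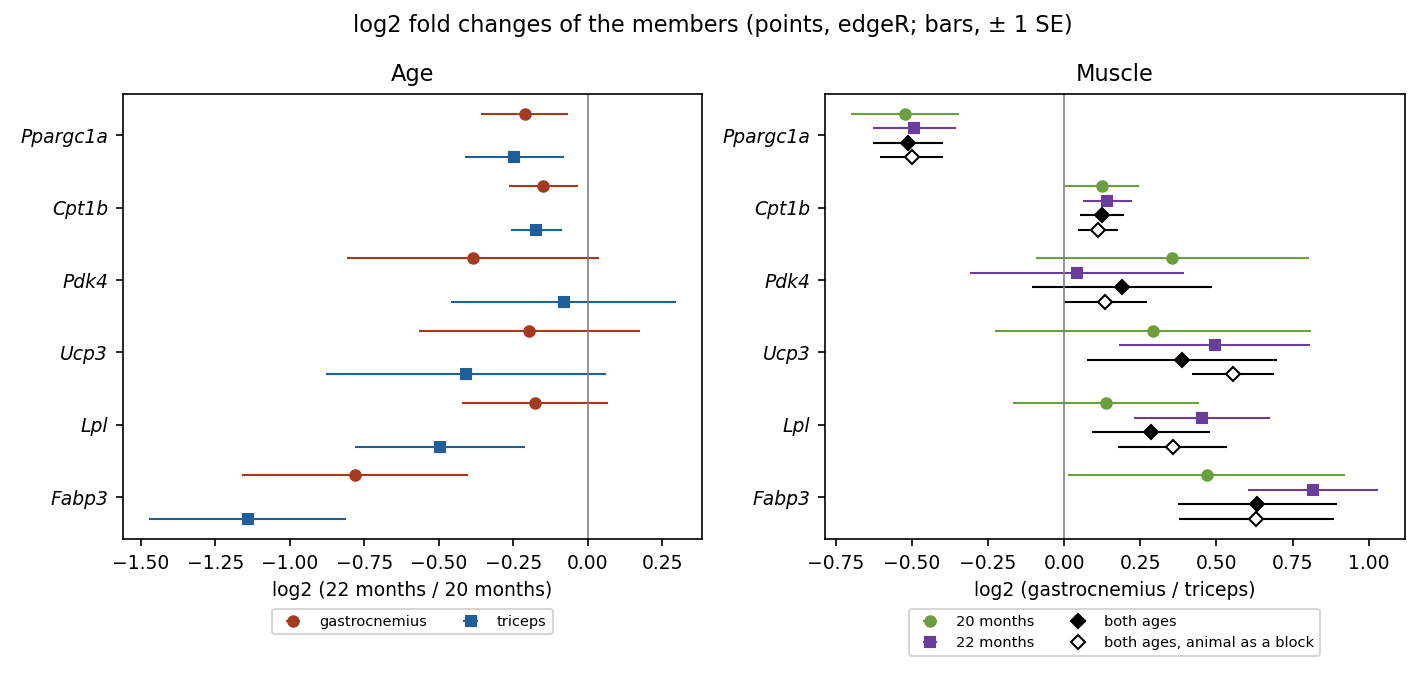
Points are log2 fold changes from edgeR and bars are 1 SE, for age (left, 22 over 20 months) and muscle (right, gastrocnemius over triceps), with 10 libraries per group. Ppargc1a is near -0.5 in all 4 muscle fits, and the bar of Ucp3 over both ages shrinks from 0.31 to 0.13 with the animal as a block.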

How the data were processed

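RNA sequencing measured polyadenylated RNA of 40 libraries. The authors deposited 1 table of whole-number read counts per gene, not normalized. The submitters' processing notes name CASAVA 1.8, STAR 2.3.0e, HTSeq and Rnor_6.0, and the annotation release is not given in the sources used here. Rat libraries were unstranded, so a gene and an antisense partner cannot be told apart. The study's methods describe kallisto for its own values, which may differ.

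The counts went into edgeR 4.0.16 under R 4.3.3. Genes with at least 1 CPM in 10 libraries of a comparison were kept, factors of the trimmed mean of M values (TMM) were computed, and the two-sided quasi-likelihood F-test was run over all genes with Benjamini-Hochberg adjustment. The threshold for a call was an adjusted p under 0.01. Each age and muscle comparison used its own 20 libraries, and the others all 40. SE came from the F statistic. Alternatives were DESeq2 1.42.0, limma-voom (limma 3.58.1), other scalings and filters, a looser threshold, the replicate block and leaving out libraries. The test was also tried on simulated counts of independent libraries. These held no pairing of muscles, so that trial does not bear on the paired design.

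The log2 CPM for correlations had a prior count of 2. Both muscles of an animal carry 1 animal number in the labels, which is where the pairing comes from. The median r of their deviations was 0.158, and 12 of 20 pairs exceeded 0.1. The correlation between muscles was permuted within age and added after the design was set.

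The members, lists and tests were chosen with earlier results of these data known. All 7 members are named, and of other genes the 2 identifiers most like a member. Of the 47357 genes of the RefSeq table (GRCr8) 0 carried an Ensembl identifier, so other pathway genes and cell markers were not analysed here, and the members' names are those given with their identifiers. The labels give no batch or date. Counting error was at most 7.72% for each of the 6 genes tested. SE of the age fits within a muscle measure the spread between libraries of different animals, counting error included. Fits of both muscles without the block took the muscles of an animal as independent. Their SE are therefore not those of a paired difference.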

Additional observations from a re-analysis of the deposited data

Results flagged for a closer look

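In 24 groups of 10 libraries (6 genes in 4 groups), 3 had a library whose gap to the next was above Dixon's 95% critical value of 0.466 of the group's range. Chance gives about 1 in 20 groups only where values follow a normal distribution, which was not checked. The gaps were taken on CPM and not on a log scale, and all 3 were at the high end. The count of 3 is therefore not set against chance. Ppargc1a reached 49.72 CPM in triceps replicate 7 of 20 months, 0.697 of the range above the next library (25.82 CPM). This is 1 of the libraries that stood apart on the first principal component. Ppargc1a reached 30.03 CPM in triceps replicate 10 of 22 months, 0.5 of the range above the next (22.77 CPM). Ucp3 reached 318.8 CPM in triceps replicate 3 of 20 months, 0.493 of the range above the next (169 CPM). The gastrocnemius of that animal had 228 CPM of Ucp3, and its triceps had 401 CPM of Pdk4, the highest of its group.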

How the results depend on the processing

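Under the other settings listed with the design, 1072 values kept their direction and their side of the threshold, 20 changed sign, 16 fell short of the threshold, 5 newly passed it and 23 counts moved by over 1.5 times. The replicate block changed the calls of Ppargc1a, Fabp3 and Ucp3 as given above and no other member's call. It paired both muscles of an animal in the muscle comparisons. Between ages, replicate numbers name different animals (median r 0.0805 in gastrocnemius and 0.1 in triceps, 5 of 10 numbers over 0.1 in each), so that block has no basis in the design; it called 0 genes in either muscle.

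Genes called at 20 months between muscles were 467, but 1203 at an adjusted p under 0.05, 878 by DESeq2 and 206 to 525 when 1 animal was left out. At 22 months they were 2552, but 4265 at an adjusted p under 0.05. DESeq2 called 1 gene for age in gastrocnemius. Members called at 22 months were 2, but 1 with no filter on low counts, 0 with the block and 0 to 2 when 1 animal was left out: Ppargc1a then had an adjusted p of 0.0056 to 0.0336 and lost its call in 7 of 10 cases, and Fabp3 had 0.000592 to 0.0205 and lost it in 5 of 10. Over both ages 1 member was called, but 2 at an adjusted p under 0.05, 2 with library totals alone, 2 with the block, 3 without animals 7 and 10 of 20 months, 4 with the block and without them, and 1 to 2 when 1 animal was left out (Fabp3 joined without replicate 10 of 20 months, adjusted p = 0.00387).

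With scaling by library totals alone the median log2 fold change of all genes was 0.195 at 22 months, 0.156 over both ages, 0.109 at 20 months and 0.14 for age in gastrocnemius, where TMM scaling left it at 0.00622, -0.00129, 0.00433 and 0.00966. The calls at 22 months were then 2830 higher and 635 lower in gastrocnemius, against 1318 and 1234, those at 20 months 323 and 102, against 297 and 170, and those over both ages 3805 and 890, against 1877 and 1922. With it Cpt1b was called at 22 months (0.32, adjusted p = 0.00177) and over both ages (0.27, adjusted p = 0.00271), and Ppargc1a was not called at 22 months (-0.33, adjusted p = 0.0377).

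Signs turned only in values that were not called, and the cause was not tested. With age, Ucp3 in gastrocnemius was 0.16 by limma-voom, 0.14 with the block and -0.33 to 0.02 when 1 library was left out. Pdk4 in triceps was 0.01 with the block and -0.26 to 0.04 with 1 left out, and Lpl in triceps 0.07 without replicates 7 and 10. Pdk4 between muscles at 22 months was -0.09 to 0.19 with 1 animal left out. The difference of age effects turned for Ppargc1a (-0.03 by limma-voom, -0.03 with the block, -0.17 without animals 7 and 10, -0.16 to 0.14 with 1 left out), Cpt1b (-0.07 without them, -0.03 to 0.08), Lpl (-0.28 without them), Fabp3 (-0.42 without them, -0.06 to 0.61) and Ucp3 (-0.04 to 0.37).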
